A study of Mus musculus with 96 samples.

Results

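Q92 mice at 6 months of age were compared with the pooled controls of the same age in the cortex. Members were chosen by the sample labels alone, as the 8 libraries of Q92 at 6 months and the 24 control libraries of that age, 32 of the 96 libraries in all. The controls were 8 Q20 mice, 8 wild-type (WT) littermates of the Q20 line and 8 WT littermates of the Q50 line. Each group held 4 females and 4 males. Q92 and Q20 mice carried 1 WT *Htt* allele and 1 knock-in allele in which a human *HTT* exon 1 with 92 or 20 CAG repeats sits at the mouse gene's own locus, so no transgene promoter was involved. WT mice carried no knock-in allele, and the strain of all groups is given as C57BL/6. Per the labels, Q92 mice were caged with other Q92 mice, and Q20 mice with WT mice, whereas the methods of the study describe mixed cages for all lines. No WT littermates of the Q92 line are among these libraries, so that genotype, line and, if the labels hold, cage cannot be told apart.

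Huntington's disease is caused by an expanded CAG repeat in *HTT*, which lengthens a polyglutamine stretch in huntingtin, and the cortex is one of the regions in which neurons are lost. MicroRNAs are cut from hairpin precursors, the stem-loops, first by Drosha in the nucleus and then by Dicer in the cytoplasm. The mature strand guides Argonaute proteins to partly complementary mRNAs, which are then translated less or degraded. The comparison asks which stem-loops differ in level between mice with a long repeat in the knock-in allele and mice with a short knock-in repeat or no knock-in allele.

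What was measured is an estimated read count per stem-loop. Totals per library ranged from 5317800 to 7651620 counts in the 32 libraries, and libraries with more reads give more precise values for scarce stem-loops. Of 1187 stem-loops listed, 439 passed the filter on low counts. Levels are given in CPM, the count scaled to a common library total. Stem-loops are named by accession because the sources used here do not pair accessions with microRNA names, so that roles, sequences and genome positions are not given, at most 2 stem-loops per direction are named, and marker lists of cell types, including those of the cortex itself, were not tested. *Htt* mRNA is not captured by small RNA libraries, so the genotype labels were not checked against the data. In a connectivity screen modelled on the study's methods, 4 of the 32 libraries stood apart from the other libraries of that age. They were left out of the fits, namely Q92 male replicate 1, WT of the Q50 line female replicates 2 and 4 and WT of the Q20 line male replicate 4. 7 Q92 and 21 control libraries remained. In tissue samples such as these, fewer cells of a type and less RNA per cell cannot be told apart. Each library is a different mouse according to the study's methods, so p-values refer to the spread between mice.

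Most of the changes in Q92 were decreases. 53 of 439 stem-loops (12.1%) passed a false discovery rate (FDR) of 0.05, of which 37 (8.43%) were lower and 16 (3.64%) higher in Q92. The median log2 change was -0.38 for the lower stem-loops and 0.22 for the higher ones, against -0.00 over all 439. Changes of more than 1 on the log2 scale were seen in 11 of the 53, all of them lower, while 34 were under 0.5. The groups did not overlap for 1 stem-loop, which was lower in every Q92 library than in any control (0.228% of those tested), and for 0 in the other direction. An unadjusted p under 0.05 was found for 24.4% of those tested. The last stem-loop to pass had an FDR of 0.0441 and the first to miss 0.0506. Scaling by library totals in place of TMM normalization gave 9 higher and 55 lower, so the excess of decreases was larger under that scaling. With the 4 libraries that stood apart put back, 31 were higher and 45 lower. The count also depended on single mice of the Q92 group. It was 24 higher and 36 lower without Q92 female replicate 1, 12 higher and 22 lower without Q92 female replicate 2, 9 and 20 without female replicate 3, 10 and 21 without female replicate 4, 11 and 17 without male replicate 2, 15 and 23 without male replicate 3, and 12 and 22 without male replicate 4.

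**Figure D1:**
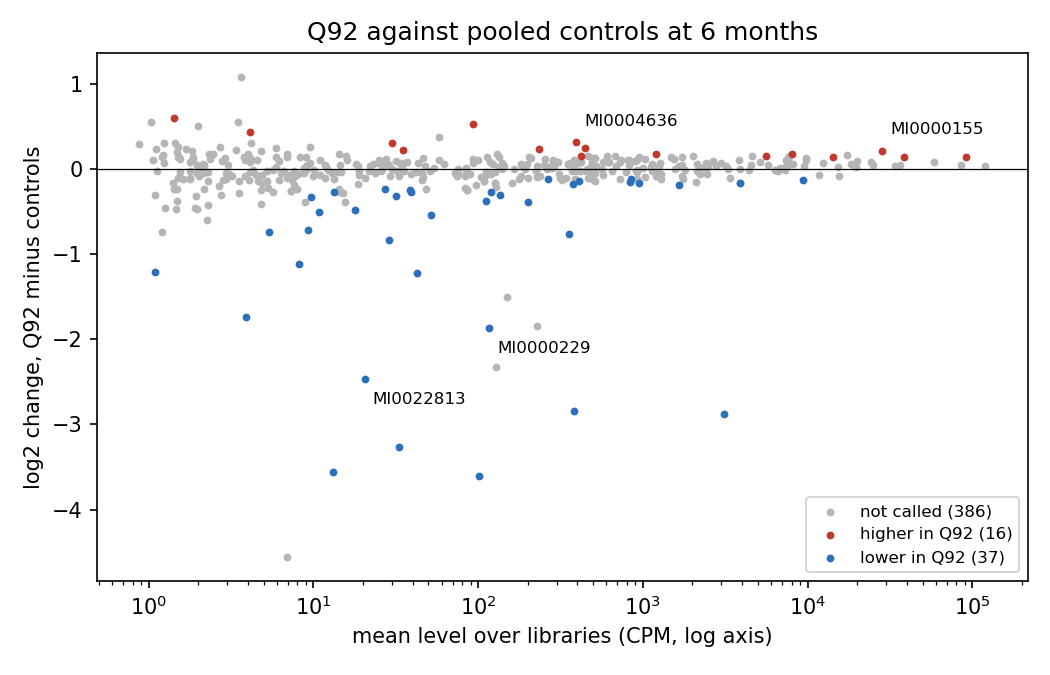
Each point is 1 of the 439 stem-loops tested, with its mean level over the libraries in CPM (horizontal, log axis) and the log2 change of Q92 minus the pooled controls at 6 months (vertical). The 16 higher stem-loops lie close to 0, the highest at 0.60, whereas the 37 lower ones reach -3.61.

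The higher and the lower stem-loops differed in abundance. At a mean level of at least 1000 CPM there were 88 stem-loops, of which 7 were higher, with log2 changes between 0.14 and 0.21, and 4 were lower. Among the 218 between 10 and 1000 CPM, 7 were higher and 27 lower, with a median of -0.37 for the latter. Of the 133 stem-loops under 10 CPM, 2 were higher and 6 lower. The 16 higher stem-loops together made up 19.8 ± 0.57% (SD, n = 7) of a Q92 library and 18.5 ± 0.67% (n = 21) of a control library. The 37 lower ones made up 1.83 ± 0.12% of a Q92 library and 2.54 ± 0.58% of a control library. Without 5 of them, which belong to a set of co-varying stem-loops described further on, the shares were 1.77 ± 0.11% and 2.07 ± 0.10%. These sums describe stem-loops that were picked by the same contrast. All 7 Q92 libraries lay above the control median for 12 of the 16 higher stem-loops, and below it for 28 of the 37 lower ones. Over all 439 tested, this held for 5.69% and 9.34%, called stem-loops included. The SD of log2 levels was also smaller over the 7 Q92 libraries than over the 21 controls for 30 of the 37 lower stem-loops. This held for 12 of the 16 higher ones and for 63.6% of all 439. The controls pool several groups, so their SD includes differences between those groups.

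MI0000229 had the smallest FDR and separated Q92 from every control mouse. The ratio of the 2 deposited tables implies a stem-loop of 61 nt, and its counts were whole in all libraries. Its level ran from 30.5 to 45.7 CPM in the 8 Q92 libraries, with a median of 39.0 and 189 to 272 counts behind each value. In Q20 the lowest, median and highest levels were 60.9, 156 and 197 CPM. They were 135, 164 and 195 CPM in WT of the Q20 line and 86.1, 124 and 156 CPM in WT of the Q50 line. No control library reached down into the Q92 range, although a pair of Q20 libraries came near it. On the log2 scale MI0000229 was at -1.87 ± 0.21 (SE) in Q92 relative to controls (FDR 1.72e-06), and it passed under all 49 alternatives tried, between -2.06 and -1.52.

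MI0022813 was less abundant and fell furthest among the named stem-loops. The tables imply a length of 88 nt, and its counts were likewise whole. The 8 Q92 libraries spanned 3.39 to 5.43 CPM with a median of 4.60, which rests on 21 to 35 counts each. The corresponding values were 5.25, 27.4 and 41.3 CPM in Q20, 21.8, 31.0 and 47.5 CPM in WT of the Q20 line and 6.27, 19.0 and 33.5 CPM in WT of the Q50 line. 1 Q20 library lay inside the Q92 range and the other 23 controls above it. The control groups were thus far more spread than Q92, and several Q20 mice were nearly as low as Q92 mice. The log2 change was -2.47 ± 0.42 (FDR 5.9e-04). It missed the threshold when females, males or libraries of L field 2 were fitted alone.

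Among the stem-loops that rose, MI0004636 had the smallest FDR. The tables imply a length of 84 nt. Its level was 414 to 573 CPM in Q92, with a median of 469. The lowest, median and highest levels were 309, 378 and 485 CPM in Q20 and 336, 355 and 365 CPM in WT of the Q20 line. In WT of the Q50 line the lowest level was 336 CPM and the median 374 CPM, and the highest library lay within the Q92 range. All 8 Q92 libraries exceeded the median of the 24 controls, and 4 controls, none of them WT of the Q20 line, fell within the Q92 range. The change of 0.31 ± 0.06 on the log2 scale (FDR 0.00189) was thus modest, and WT mice of the Q20 line stood out by how little they varied. It missed the threshold against Q20 alone (FDR 0.0743), against WT of the Q50 line alone (FDR 0.0587), in females alone and in L field 1 alone.

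MI0000155 was one of the abundant stem-loops of this cortex. Its implied length is 70 nt, and its counts were fractional in 92 of the 96 libraries, so that reads shared with another locus may be divided among stem-loops in a way that is not stated. Q92 libraries held 29327 to 34012 CPM with a median of 31979. In Q20 the lowest, median and highest were 24846, 27327 and 31203 CPM. They were 24071, 24846 and 28496 CPM in WT of the Q20 line, and 25118, 27786 and 30194 CPM in WT of the Q50 line. 6 of 8 Q92 libraries lay above every control, and 3 of the 24 controls lay within the Q92 range. The log2 change was 0.21 ± 0.04 (FDR 0.00263). It missed the threshold against Q20 alone (FDR 0.0521), against WT of the Q50 line alone (FDR 0.113), in either sex alone and in L field 2 alone.

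**Figure D2:**
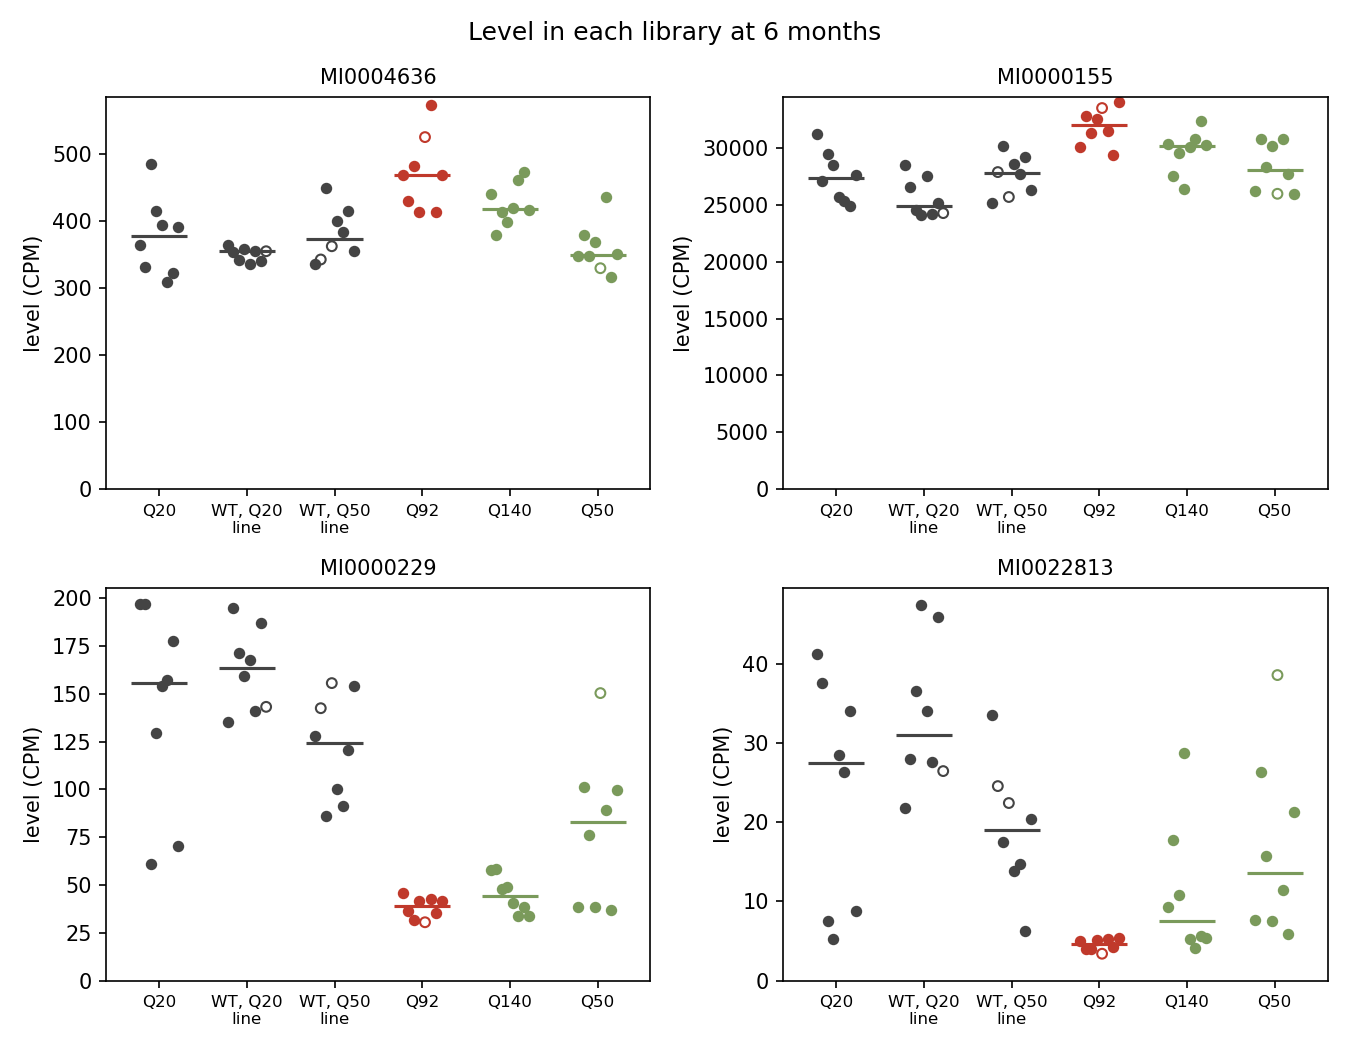
Level in CPM of the 4 named stem-loops in each library at 6 months, by group; lines are group medians and open circles are libraries left out of the fits. MI0000229 lies between 30.5 and 45.7 CPM in Q92 and at 60.9 CPM or more in all controls, while the 2 upper stem-loops show a small shift with overlap.

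3 of the 4 named stem-loops varied together among the control mice. Over the 24 control libraries, MI0000229 and MI0022813 were correlated on the log2 scale (Pearson r = 0.73, permutation p = 2e-04, Spearman rho = 0.82, permutation p = 1e-05, the smallest that 100000 permutations can give). Adjusted over the 6 pairs of the 4 stem-loops, these p-values were 4e-04 and 6e-05. Leaving out the 2 libraries farthest from the median left r = 0.62. MI0004636, which rose in Q92, ran against MI0000229 (r = -0.76, rho = -0.69, adjusted permutation p = 1.2e-04 and 6e-04) and against MI0022813 (r = -0.74, rho = -0.68, adjusted permutation p = 2.4e-04 and 6e-04). r was -0.58 and -0.76 without the 2 farthest libraries. The 3 pairs kept their sign within libraries of L field 1 (n = 13, r = 0.79, -0.78 and -0.83) and of L field 2 (n = 11, r = 0.67, -0.73 and -0.67). They also kept it within each control group of 8, with r between 0.35 and 0.80 for MI0000229 and MI0022813, between -0.75 and -0.58 for MI0004636 and MI0000229, and between -0.74 and -0.53 for MI0004636 and MI0022813. A control mouse with a low level of either lower stem-loop therefore tended to have a high level of MI0004636, as Q92 mice did. MI0000155 did not share this within every group. Pooled over the controls it had r = 0.62, -0.43 and -0.54 to MI0004636, MI0000229 and MI0022813 (rho = 0.63, -0.41 and -0.57, adjusted permutation p between 0.0015 and 0.0487). Within WT of the Q20 line, however, r was 0.03 to MI0004636 and 0.01 to MI0000229, and within Q20 r to MI0000229 was -0.27. What varied among the control mice was not tested.

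Pooling 3 control groups raised the question of whether 1 of them carried the result. Each of the 53 stem-loops kept its sign against Q20 and against WT of the Q20 line, as did the 52 of them that could be tested against WT of the Q50 line. The number past the threshold differed between control groups. It was 0 higher and 6 lower against Q20, 24 and 34 against WT of the Q20 line, and 8 and 10 against WT of the Q50 line. WT mice of both lines together gave 23 higher and 30 lower. The median log2 change of the 37 lower stem-loops was -0.43 against Q20, -0.44 against WT of the Q20 line and -0.31 against WT of the Q50 line. For the 16 higher ones it was 0.21, 0.29 and 0.19. These fits share the same 7 Q92 libraries, and whether the control groups differ from each other in these values was not tested. The 53 were picked in the pooled fit, which holds all these libraries. A kept sign was thus largely given in advance and does not settle whether 1 group carried the result.

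**Figure D3:**
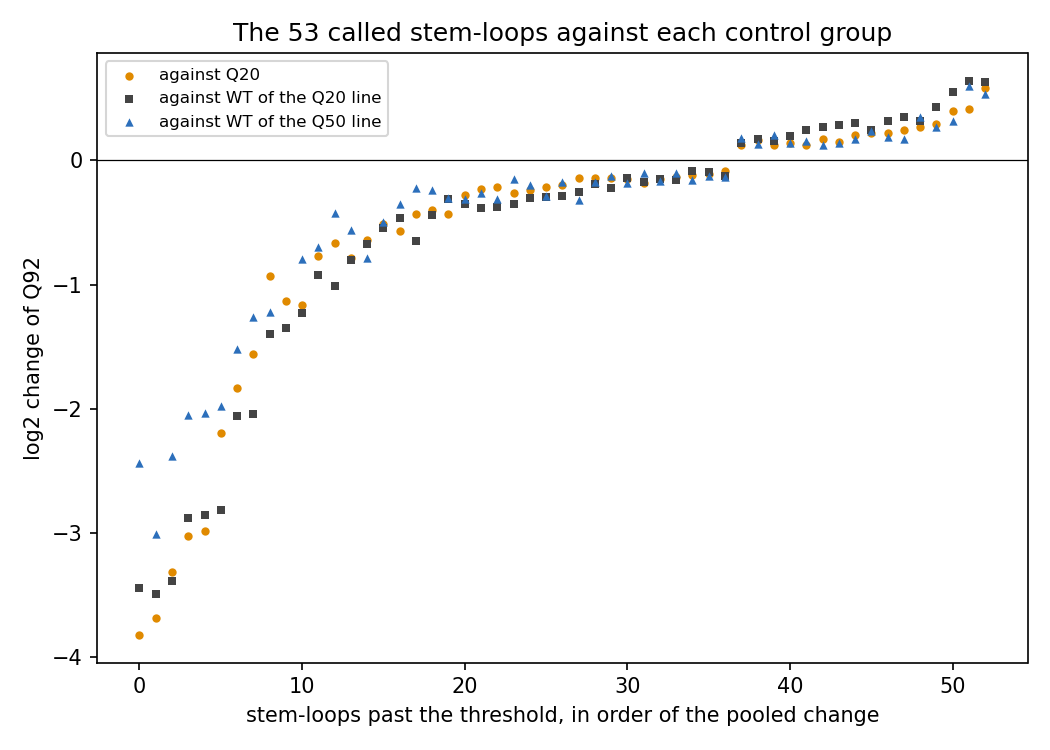
The 53 stem-loops past the threshold, in order of their change against the pooled controls (horizontal), with the log2 change of Q92 against each of the 3 control groups taken alone (vertical). All points of the 37 lower stem-loops lie below 0 and all points of the 16 higher ones above 0.

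No difference between females and males in the contrast of Q92 with controls was detected. In a test of the interaction of genotype with sex, 0 of 457 stem-loops passed in edgeR and 0 in DESeq2, with 14 (3.06%) at an unadjusted p under 0.05 in edgeR. Leaving out Q92 male replicate 3 or WT of the Q20 line male replicate 2 gave 1 stem-loop, and all 32 libraries together gave 0. MI0000229 was at -1.90 in females and -1.81 in males, with a difference of 0.06 and an approximate 95% interval from -0.69 to 0.80. MI0022813 was at -2.61 and -2.27, and their difference was 0.30 ± 0.76. MI0004636 was at 0.24 and 0.41, and MI0000155 at 0.20 and 0.24. The error of the difference was thus large for both lower stem-loops. Fitted alone, females gave 0 higher and 1 lower stem-loop and males 2 and 1. All 53 had the sign of the joint fit in each sex, but they were picked in that fit, which holds the same libraries.

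The sample descriptions hold an L field that no label explains. It served as the batch term and takes values 1 and 2 at this age, each with 4 Q92 libraries, of which 4 and 3 were kept. Within L field 1 (15 libraries) the test gave 4 higher and 9 lower stem-loops, and within L field 2 (13 libraries) it gave 2 and 3. All 53 stem-loops kept their sign within either value, but they were picked in the joint fit of these same libraries. MI0000229 was at -1.93 and -1.76, and passed in both.

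A group of 8 stem-loops that vary together among control mice was also low in Q92. It was found in the 24 control libraries, where any pair of its members correlated with r of at least 0.97, and it contains none of the named stem-loops. The summed level was 280 to 1136 CPM in the 8 Q92 libraries, with a median of 576. Across the 24 controls it ranged from 600.3 to 63183 CPM with a median of 3190, and 11 controls exceeded 5000 CPM. All 8 Q92 libraries lay under the control median and 4 lay under the lowest control, but 9 of 24 controls lay within the Q92 range. 5 of the 8 members are among the 37 lower stem-loops. In the libraries kept in the fit, the summed level had medians of 688 CPM in Q92 and 1402 CPM in controls, with a highest control of 24316 CPM. In that fit the log2 change of the 8 ranged from -3.61 to -1.50 with a median of -2.86. The 5 called members had an SE between 0.91 and 1.16 and an FDR between 0.0387 and 0.0441. With 1 control group at a time, these 5 passed only against WT of the Q20 line. Members of the set account for 5 of the 11 changes over 1. Without them, the median of the remaining 32 lower stem-loops was -0.32.

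The number of calls outside the set was smaller once its level was taken into account, while the changes were of similar size. With the log2 of its level as a further term, the comparison gave 4 higher and 17 lower, and 19 of the 48 previously called stem-loops outside the set passed again, all 48 with the same sign. Their median absolute log2 change was 0.25 with this term and 0.27 without it. MI0000229 was at -1.79 ± 0.23 and MI0004636 at 0.32 ± 0.08. When the libraries over 5000 CPM of the set were left out, all of them controls, 13 were higher and 22 lower. The named stem-loops all passed in both fits, MI0000155 only narrowly with the set level as a term (FDR 0.0493). Q92 mice were all low in the set, so in this fit the set level and the genotype cannot be fully told apart.

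**Figure D4:**
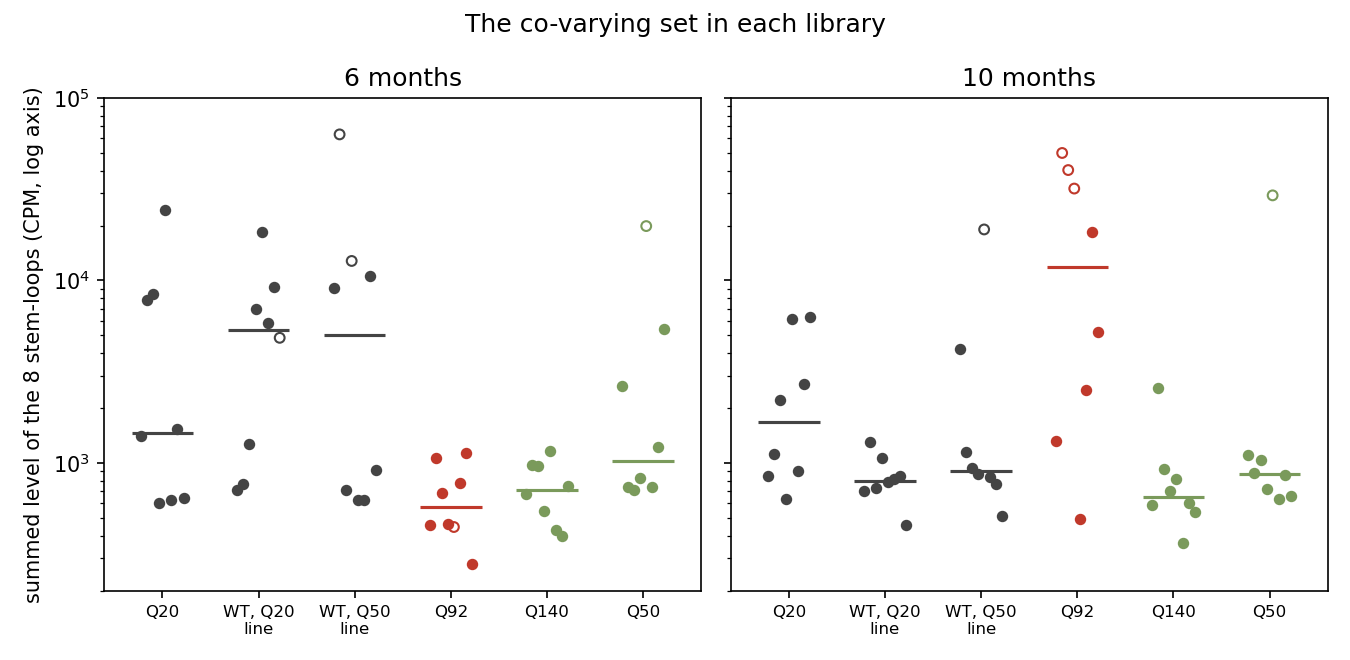
Summed level of the 8 co-varying stem-loops in each library (CPM, log axis), by group, at 6 months (left) and 10 months (right); lines are medians and open circles are libraries left out of the fits. At 6 months Q92 spans 280 to 1136 CPM, and at 10 months 494 to 49976 CPM.

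The contrast was repeated at 10 months in other mice. With 5 Q92 and 23 control libraries kept, 0 of 458 stem-loops passed in edgeR, and 40 (8.73%) had an unadjusted p under 0.05. DESeq2 was not run on this contrast. The sign seen at 6 months was found in 14 of the 16 higher stem-loops, with a median log2 change of 0.03, and in 29 of the 37 lower ones, with a median of -0.12. Over all 458, 50.0% were positive and the median was 0.00. The 53 were picked at 6 months, so smaller medians in other mice do not by themselves show a smaller difference, and fewer Q92 libraries were kept. Outside the co-varying set, 29 of the 32 lower stem-loops were again negative. The 16 higher ones made up 19.8 ± 0.48% of a Q92 library and 19.6 ± 1.01% of a control library at this age. The 37 lower ones made up 2.87 ± 0.82% and 2.77 ± 0.33%, and without the 5 set members 2.39 ± 0.18% and 2.64 ± 0.24%. Q92 and control libraries overlapped in all these sums at 10 months.

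Among the named stem-loops, MI0000229 ranged from 34.8 to 184 CPM in the 8 Q92 libraries at 10 months, with a median of 57.9, and from 34.2 to 254 CPM in the 24 controls. Its log2 change in the fit, which kept 5 of these Q92 libraries and 23 controls, was -1.52 ± 0.56 (FDR 0.444). The kept Q92 libraries spanned 34.8 to 69.6 CPM with a median of 39.7, against a median of 88.3 CPM in the kept controls. The low levels were not particular to Q92 at this age, as all 8 WT mice of the Q20 line lay between 34.2 and 51.8 CPM. These WT mice were also low in MI0022813, at 5.24 to 11.6 CPM, whereas Q92 spanned 4.33 to 68.3 CPM. The log2 change of MI0022813 in the kept libraries was -0.97 ± 0.79 (FDR 0.717), with medians of 8.61 CPM in Q92 and 10.7 CPM in controls. Over all libraries these medians were 23.8 and 11.2 CPM, so the direction depended on the libraries left out. MI0004636 was at 500.1 to 702 CPM in Q92 and 407 to 746 CPM in controls, with a log2 change of -0.02 ± 0.11. MI0000155 was at 0.03 ± 0.08.

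**Figure D5:**
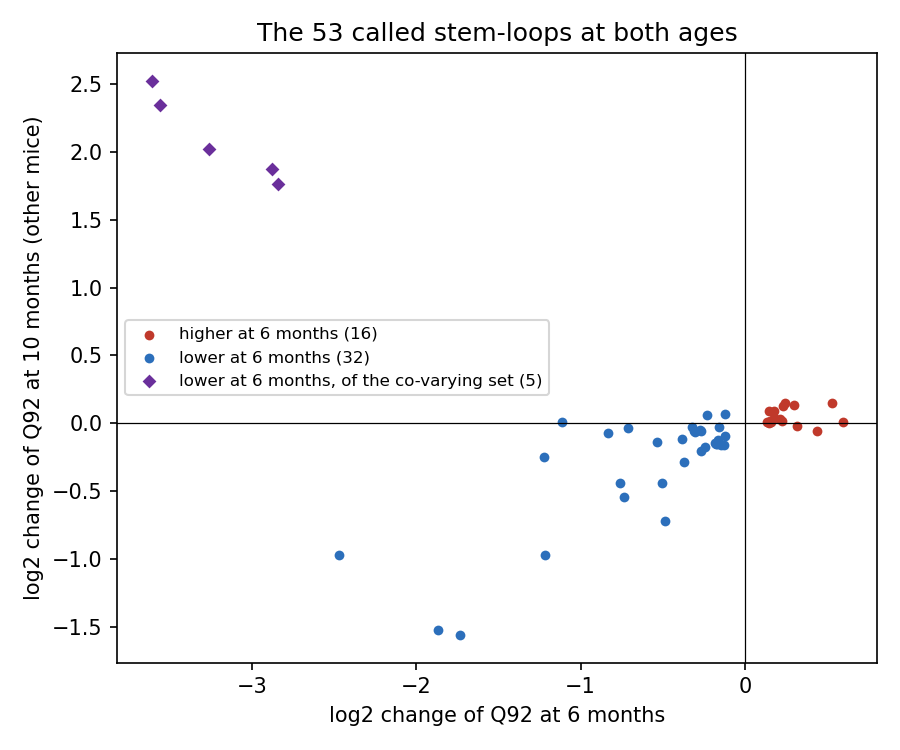
Log2 change of Q92 against controls at 6 months (horizontal) and at 10 months in other mice (vertical) for the 53 stem-loops called at 6 months. The 5 members of the co-varying set are below 0 at 6 months and above 0 at 10 months, up to 2.52, whereas 29 of the other 32 lower stem-loops are below 0 at both ages.

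Whether the difference between Q92 and controls changed with age was tested directly as an interaction. 7 of 467 stem-loops (1.5%) passed, all towards a higher level at 10 months, and 46 (9.85%) had an unadjusted p under 0.05. The 7 changes lay between 3.58 and 6.16 on the log2 scale and SE between 0.96 and 1.47. All 7 belong to the co-varying set, whose summed level in the Q92 libraries kept in the fit had medians of 688 CPM (6 months) and 2517 CPM (10 months), against 1402 and 867 CPM in the kept controls. Over all libraries, the 3 Q92 females left out at 10 months included, the medians were 576 and 11838 CPM in Q92 and 3190 and 886 CPM in controls. The count was 0 without Q92 male replicate 3 of 10 months. With the set level as a further term, the set members were left out of testing, so the 7 could not pass. Of the 459 stem-loops tested in that fit, 0 passed. With all libraries kept the count was 17 higher and 12 lower. None of the named stem-loops passed. The interaction for MI0022813 was 1.64 ± 0.81 (FDR 0.494) and for MI0004636 it was -0.34 ± 0.13 (FDR 0.335). For MI0000229 it was 0.41, with an approximate 95% interval from -0.61 to 1.43.

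Q140 mice of the same age share no library with Q92, and per the labels were likewise housed with their own genotype. In a direct test of Q140 against Q92, 0 of 442 stem-loops passed in edgeR, with 46 (10.4%) at an unadjusted p under 0.05, and DESeq2 gave 1 higher and 2 lower. The smallest FDR in edgeR was 0.198. MI0000229 ranged from 33.9 to 58.5 CPM in Q140 with a median of 44.4, so that 4 of 8 libraries lay within the Q92 range and the others above it. The difference from Q92 was 0.18 on the log2 scale, with an approximate 95% interval from -0.02 to 0.38. MI0022813 was less uniform in Q140, at 4.08 to 28.8 CPM with a median of 7.47, and differed from Q92 by 1.04 with an interval from 0.39 to 1.68 (FDR 0.241). MI0004636 was at 380.0 to 474 CPM in Q140 and MI0000155 at 26395 to 32339 CPM. Both were somewhat below Q92, with approximate intervals from -0.25 to -0.02 and from -0.17 to -0.01. The named stem-loops were picked in a fit that holds these same Q92 libraries. That Q92 was the more extreme group was thus partly given in advance. Neither difference passed after adjustment (FDR 0.426 and 0.468), and the unadjusted p of MI0000155 in edgeR was 0.0511.

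Against the same controls, Q140 gave 8 of 445 stem-loops (1.8%), 3 higher (0.674%) and 5 lower (1.12%). Q50 gave 0 of 447, with 56 (12.5%) at an unadjusted p under 0.05. Because these contrasts share the control libraries with Q92, their values are only set side by side. The log2 change of MI0000229 was -1.87 in Q92, -1.67 in Q140 (FDR 2.47e-06) and -1.07 in Q50 (FDR 0.0812). For MI0022813 the values were -2.47, -1.37 and -0.93, for MI0004636 0.31, 0.20 and -0.03, and for MI0000155 0.21, 0.14 and 0.06. In Q50, MI0000229 ranged from 36.9 to 150.4 CPM with a median of 82.8, between the levels of Q92 and of the controls. Of the 53 stem-loops called in Q92, the 16 higher had a median of 0.13 in Q140 and 0.02 in Q50, and the 37 lower had a median of -0.27 and -0.20. The 53 and the named stem-loops were picked in Q92. Smaller values in Q140 and Q50 therefore do not by themselves show a smaller difference. The summed share of the 37 lower stem-loops was 1.93 ± 0.12% in Q140 (n = 8) and 2.16 ± 0.20% in Q50 (n = 7), and that of the 16 higher ones 19.1 ± 0.30% and 18.3 ± 0.73%.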

How the data were processed

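The authors deposited 2 tables of miRBase stem-loops, one of estimated counts, which are not normalized and partly fractional, and one of FPKM values, used here only to obtain stem-loop lengths. Per the study's methods, small RNA was sequenced on an Illumina HiSeq with short strand-specific reads, clipped, aligned to the mouse genome with STAR and counted with HTSeq. The submitters' processing notes name CASAVA 1.8.2, and no version of STAR or HTSeq is given in the sources used. How shared reads were divided is not stated, and 13 of the 53 called stem-loops (24.5%) had fractional counts in most of the 32 libraries, against 27.8% of those tested.

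Counts were rounded and fitted with edgeR 4.0.16 under R 4.3.3, by its robust quasi-likelihood test after TMM scaling and the filterByExpr filter, with sex and the L field as covariates. p-values were adjusted by Benjamini-Hochberg over all stem-loops tested, at a threshold of FDR 0.05. SE is the log2 change divided by the root of the F statistic. The study used DESeq2 (here 1.42.0), which was run as an alternative. Libraries with a connectivity Z under -5, from variance-stabilized counts of the age, were left out, 5 of 48 at 6 months. In the 32 libraries these Z ranged from -11.9 to -5.37, and the lowest kept was -4.81 (Q20 male replicate 1). The study's methods do not give the formula that turns distances into connectivity, so its own choice of libraries may differ. Without Q20 male replicate 1 the main count was 19 higher and 30 lower. CPM of single stem-loops are TMM-scaled over all libraries of an age, and set levels and shares use library totals. The set was defined by r over 0.9 among log2 CPM of the controls (mean over 1 CPM, 0.5 CPM added). No pair of libraries within a group agreed within sampling noise. Members, lists and named stem-loops were chosen with earlier results of these data known. Named are the stem-loops with the smallest FDR in each direction (MI0022813 tied with others in FDR and had the smaller unadjusted p), since the rule allows at most 2 accessions in each. The fit was tested on simulated data in which the spread between libraries was capped. Stem-loops that vary more than this were not covered.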

Additional observations from a re-analysis of the deposited data

Results flagged for a closer look

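The difference between Q92 and controls changed between ages for 7 stem-loops by a test of the interaction itself. All belong to the co-varying set, and the number was 0 without Q92 male replicate 3 of 10 months. No library stood far from the others of its group on the log2 scale in 20 checks (the 4 named stem-loops and the set level, in Q92 and each control group at 6 months), where chance would flag about 1 in 20.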

How the results depend on the processing

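All 53 called stem-loops, or all that were tested, kept their sign in each of the 49 alternatives. These were run for Q92 against controls at 6 months. The 53 were picked in the main fit of the same libraries, so kept signs were largely given in advance. The count of 16 higher and 37 lower became 9 higher with library totals only (55 lower), 8 and 23 with no low-count filter, 31 higher with all libraries kept, 0 and 6 against Q20, 8 and 10 against WT of the Q50 line, 4 and 9 in L field 1, 2 and 3 in L field 2, 0 and 1 in females and 2 and 1 in males. Both alternatives chosen after seeing the data lowered it. It was 4 and 17 with the set level as a further term, where the set members were not tested. Without the libraries over 5000 CPM of the set it was 22 lower. DESeq2 gave 22 and 40. Leaving out 1 library at a time gave 9 to 24 higher and 17 to 40 lower. For the change with age, the 7 higher and 0 lower became 17 and 12 with all libraries kept and 1 lower in DESeq2. Leaving out 1 library gave 0 to 8 higher and 0 to 1 lower. With the set level as a further term the 7 were not tested, and 0 of the others passed. Leaving out 1 library gave 0 to 1 higher for the interaction with sex and for Q140 against Q92, and 0 lower in both. DESeq2 gave 1 higher and 2 lower for Q140 against Q92. The causes were not tested, and the subsets also held fewer libraries.

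With a replicate block of sex and replicate number, the main count was 10 higher and 28 lower, and that for the change with age 0. Libraries of the same sex and number in different groups had a median r of -0.03 over 36 pairs, 11 over 0.1. With other numbers the median r was -0.02 over 109 pairs, 36 over 0.1. Single pairs of the same number ranged from -0.67 to 0.63. No pairing by number was seen, though a weak one could be missed. The planned covariate built from named microRNAs was not run, because the sources used here do not pair accessions with names. Low depth limits MI0022813 in Q92, which rests on 21 to 35 counts a library.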
